A study of Rattus norvegicus with 9 samples.

Results

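The genes of the mitochondrial respiratory chain and ATP synthase were followed in the dorsal hippocampus of 9 male Sprague-Dawley rats aged 8 weeks. The genes were taken by a naming rule from probe sets that carry 1 gene symbol, and the rule was set with earlier results of these data known. It takes symbols starting with Nduf, Uqcr or Atp5, the Cox4 to Cox8 subunits, Sdha to Sdhd and Cycs, with 1 probe set per gene, the one with the highest mean over the arrays. It gave 101 genes of the 18166 genes measured with a symbol of their own. They comprise 6 core subunits, 26 accessory subunits and 8 assembly factors of complex I, 4 genes of complex II, 7 of complex III, cytochrome c, 10 subunits of complex IV with 7 further isoforms or relatives of them, Cox7a2l, 13 subunits of ATP synthase, its inhibitor Atp5if1, and 17 gene copies and pseudogenes. Of the 101 genes, 78 had a mean log2 expression over 6.6 in at least 1 group, the level below which the study set genes aside, and 23 did not.

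RNA was hybridized to Rat Gene 2.0 ST arrays, 1 array per rat and 3 per group. The OXT-treated VPA rats were born to dams given a single oral dose of valproic acid (VPA, an antiepileptic drug and inhibitor of histone deacetylases) of 600 mg/kg during pregnancy, and received 12 μg/kg/d of intranasal oxytocin (OXT, a hypothalamic neuropeptide) from postnatal day 21 to day 55. The vehicle-treated VPA rats were born to the same kind of dams and received vehicle. The control rats were born to dams given water and also received vehicle. RNA was taken on day 56. VPA-exposed rats serve as a model of autism spectrum disorder. The VPA pups came from 3 dams and the control pups from 2, and the litter of each array is not given in the sources used here, so the tests treat littermates as independent. The study describes no control rats given OXT, so an effect of OXT without VPA cannot be told apart from one that needs VPA.

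The respiratory chain passes electrons from NADH (complex I) and succinate (complex II) through ubiquinone to complex III, then by cytochrome c to complex IV, where oxygen is reduced to water. Complexes I, III and IV pump protons across the inner mitochondrial membrane, and ATP synthase makes ATP from the returning flow. Neurons of the hippocampus spend much of this ATP on ion pumping and synaptic transmission. All genes of the rule are nuclear, while the mitochondrial genome encodes other subunits of complexes I, III and IV and of ATP synthase. Some nuclear subunits were not taken, because of their symbol or because their probe sets carried several symbols.

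Many nuclear genes of this kind share promoter motifs for nuclear respiratory factor 1 (NRF1), the GA-binding protein (GABP, also called nuclear respiratory factor 2) and YY1. RefSeq promoter windows of the rat assembly GRCr8, from 250 bases before to 50 bases after the annotated start, were found for 82 of the 101 genes and searched on both strands. The NRF1 letters, GCGCA followed directly by TGCGC, stood in 5 of 82 windows (6.1%), against 0.932% of all 27457 windows of the same length. The GABP letters CCGGAAG stood in 21 (25.6%, against 9.22%), and the YY1 letters AAGATGGCG in 11 (13.4%, against 1.93%). GABP and YY1 matches can overlap, since the letters AAG end one and start the other. The letters TATAAA were in 9.76% of the windows of these genes and in 14.3% of all windows. Of 15 genes that passed the test in a pair of groups below, 14 had a window and 6 of them held an NRF1, GABP or YY1 match, against 32 of the 82 windows of all these genes. Windows of 4 of the 6 are shown as examples of these matches from complexes I and IV and ATP synthase, chosen after their values were seen, with the matches in capitals (GABP in Cox8a, GABP and YY1 in Atp5pf, GABP in Ndufs1, YY1 in Ndufs4).
Cox8a (GRCr8 chr1:213833574-213833873, minus strand): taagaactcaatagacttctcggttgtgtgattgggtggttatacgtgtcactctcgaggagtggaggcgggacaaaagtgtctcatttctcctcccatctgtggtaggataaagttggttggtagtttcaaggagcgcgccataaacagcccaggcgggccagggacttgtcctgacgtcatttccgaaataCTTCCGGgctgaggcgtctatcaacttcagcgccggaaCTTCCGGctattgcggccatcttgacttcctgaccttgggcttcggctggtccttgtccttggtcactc
Atp5pf (GRCr8 chr11:37375052-37375351, minus strand): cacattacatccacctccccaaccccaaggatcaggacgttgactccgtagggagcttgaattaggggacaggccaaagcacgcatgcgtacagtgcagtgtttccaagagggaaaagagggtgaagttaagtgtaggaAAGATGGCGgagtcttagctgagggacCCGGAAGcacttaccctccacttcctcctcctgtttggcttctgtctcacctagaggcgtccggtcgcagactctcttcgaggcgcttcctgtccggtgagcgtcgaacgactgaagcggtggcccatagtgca
Ndufs1 (GRCr8 chr9:72073556-72073855, minus strand): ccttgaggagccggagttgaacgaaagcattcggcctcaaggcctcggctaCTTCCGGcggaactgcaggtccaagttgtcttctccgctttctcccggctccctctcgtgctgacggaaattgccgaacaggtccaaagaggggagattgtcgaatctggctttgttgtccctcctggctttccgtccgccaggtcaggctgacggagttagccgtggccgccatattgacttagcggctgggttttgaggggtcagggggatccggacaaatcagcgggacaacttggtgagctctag
Ndufs4 (GRCr8 chr2:47794865-47795164, minus strand): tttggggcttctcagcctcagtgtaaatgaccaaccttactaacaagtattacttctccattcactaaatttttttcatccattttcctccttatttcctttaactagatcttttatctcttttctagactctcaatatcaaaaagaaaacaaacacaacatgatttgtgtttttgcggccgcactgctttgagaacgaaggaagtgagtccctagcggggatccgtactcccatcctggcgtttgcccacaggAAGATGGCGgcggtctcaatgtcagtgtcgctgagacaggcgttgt
The sequences are those of the reference assembly and not of these rats. A match describes the letters only, and binding was not measured here.

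Each pair of groups was compared with limma across all 30429 probe sets. A gene passed at an unadjusted p under 0.05, the threshold of the study, and the p values printed are those after Benjamini-Hochberg adjustment across the 30429 probe sets. No probe set passed at an adjusted p under 0.05 in any pair of groups, and the 3 comparisons share arrays. None of the 101 genes met the study's criteria for a differentially expressed gene, which 199 probe sets (0.654%) met. These criteria are an unadjusted p under 0.05 for the moderated F over the 3 groups, more than 1.5-fold between vehicle-treated VPA and control rats, and the level of 6.6. The F passed for 3 of the 101 genes, Cox7b2, Cycs and Atp5mc3, with a background of 7.54% of all probe sets (smallest adjusted p = 0.615).

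The median log2 value of the arrays lay between 5.75 and 5.82, and was highest on OXT-treated VPA replicate 3. This range is close in size to the median differences of OXT-treated VPA rats described below. OXT-treated VPA replicate 3 and vehicle-treated VPA replicate 3 stood apart, with limma array weights of 0.4983 and 0.352, against 0.831 to 1.628 for the other arrays. Tissue markers also moved with the groups. The 8 choroid plexus markers, such as Ttr, averaged log2 levels of 6.275 to 9.654 in OXT-treated VPA, 6.246 to 7.109 in vehicle-treated VPA and 8.46 to 9.184 in control rats. The 5 thalamic markers averaged 6.938 to 8.82, 6.848 to 8.67 and 6.59 to 7.056 in the same groups. The 4 measured oligodendrocyte markers averaged 9.798 to 10.46 in OXT-treated VPA, 9.57 to 10.528 in vehicle-treated VPA and 10.515 to 11.008 in control rats. The 3 endothelial markers averaged 8.087 to 8.173, 7.987 to 8.073 and 7.777 to 7.893 in these groups, so that endothelium, like the genes described here, was highest on the OXT arrays. The 5 general neuronal markers averaged between 10.944 and 11.158 on every array. Against control rats, 1 of them passed as lower in vehicle-treated VPA (differences of the 5 from −0.33 to 0.12, smallest adjusted p = 0.471). In OXT-treated VPA 1 also passed as lower (−0.32 to 0.26, smallest adjusted p = 0.577), and 2 had all arrays below all control arrays. The 5 markers of hippocampal principal cells, all measured, averaged 7.984 to 8.252 in OXT-treated VPA, 7.866 to 8.308 in vehicle-treated VPA and 8.21 to 8.462 in control rats, and Spink8 was below 6.6 on every array. Against control rats, 1 of the 5 was higher and 3 lower in vehicle-treated VPA (−0.77 to 0.34), and 1 was higher and 4 lower in OXT-treated VPA (−0.59 to 0.04). Only 1 of them was separate from control rats, Neurod6, a transcription factor of pyramidal neurons. It was below all control arrays on every array of both VPA groups. The differences were 0.53 on the log2 scale in OXT-treated VPA (adjusted p = 0.185) and 0.55 in vehicle-treated VPA rats (adjusted p = 0.163). The 4 interneuron markers averaged 8.808 to 8.945 in OXT-treated VPA, 8.945 to 9.083 in vehicle-treated VPA and 8.808 to 8.907 in control rats. These averages were higher on vehicle-treated VPA arrays than on control arrays, but single markers went opposite ways. Against control rats, 2 were higher and 2 lower in vehicle-treated VPA (−0.12 to 0.46), and 3 were higher and 1 lower in OXT-treated VPA (−0.47 to 0.41). Tmem212, the 1 ependymal marker measured, had 5.14 to 6.06, 5.1 to 5.82 and 6.04 to 7.01 in these groups. Averages of astrocyte, microglia and pericyte markers overlapped between all groups. The part of these cell types in the results was not tested, and in bulk RNA fewer cells of a type cannot be told apart from less RNA per cell.

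As a group, the 101 genes had small differences that leaned upward in OXT-treated VPA rats. Against vehicle-treated VPA rats, 78 of 101 genes (77.2%) had a positive difference, with a median of 0.077 on the log2 scale (1.055-fold), while 55.7% of all genes were positive, with a median of 0.017. Against control rats, 79 of 101 (78.2%) were positive with a median of 0.09, while 50.6% of all genes were positive with a median of 0.003. Between vehicle-treated VPA and control rats, 62 of 101 (61.4%) were positive with a median of 0.027, while 45.4% of all genes were positive with a median of −0.013. Of the 8340 genes with a mean log2 level over 6.6, 57.4%, 42.5% and 37.5% were positive in these comparisons, in the order given. Their medians were 0.017, −0.02 and −0.04. Of the 78 respiratory chain genes over that level, 84.6%, 85.9% and 60.3% were positive, with medians of 0.083, 0.113 and 0.025. These are descriptions of the genes, which are not independent of each other, and no test was made of the group as a whole. The median standard error of a single gene's difference was 0.101.

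**Figure D1:**
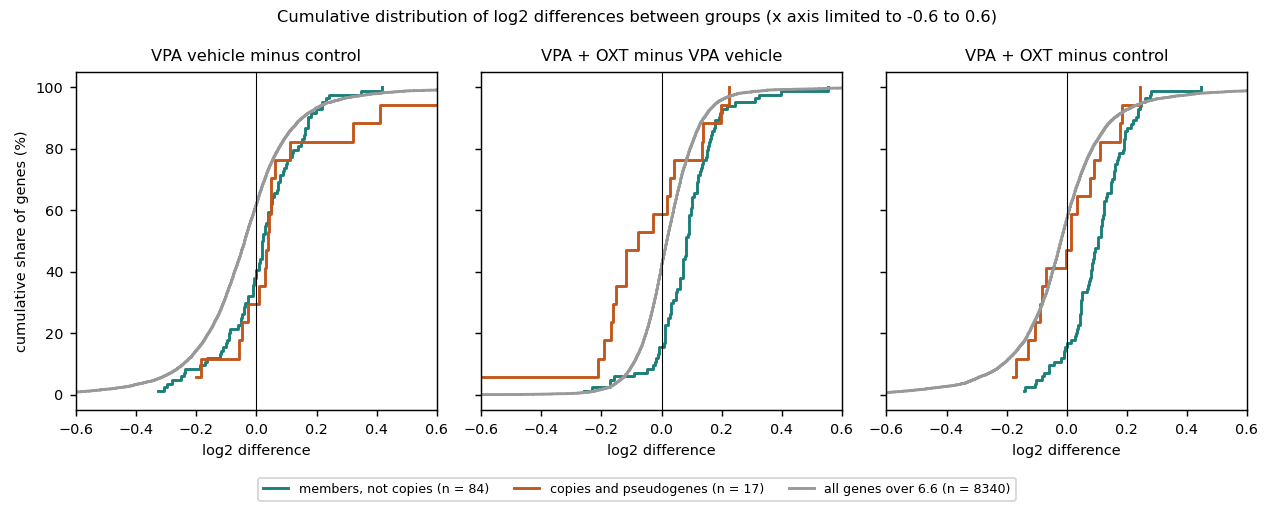
Cumulative share of genes (y axis, percent) against the log2 difference between groups (x axis, limited to −0.6 to 0.6) for 84 respiratory chain genes that are not copies, for the 17 copies and pseudogenes, and for the 8340 genes with a mean log2 level over 6.6. The curve of the 84 genes lies to the right of the grey curve over most of its length in each panel, and the copies lie left of it in the lower part of the panel of OXT-treated against vehicle-treated VPA rats.

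The mean level of the 101 genes showed the same lean array by array. It was 7.997, 8.011 and 8.039 on the OXT-treated VPA arrays, 7.92, 7.979 and 7.979 on the vehicle-treated VPA arrays, and 7.931, 7.913 and 7.95 on the control arrays. The lowest OXT array lay 0.018 above the highest of the other arrays, a gap that was 0.0 with quantile normalization, −0.022 with arrays centred on their medians, and −0.007 with the lowest probe set of each gene. The mean of all genes with a symbol lay between 6.358 and 6.384 on every array. Vehicle-treated VPA replicate 1 was the lowest of the 9 arrays for 23 genes and the highest for 3. OXT-treated VPA replicate 3 was the highest for 32 genes and the lowest for 6. Vehicle-treated VPA replicate 3 was at the end of the range in both directions, the highest for 19 genes and the lowest for 20.

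**Figure D2:**
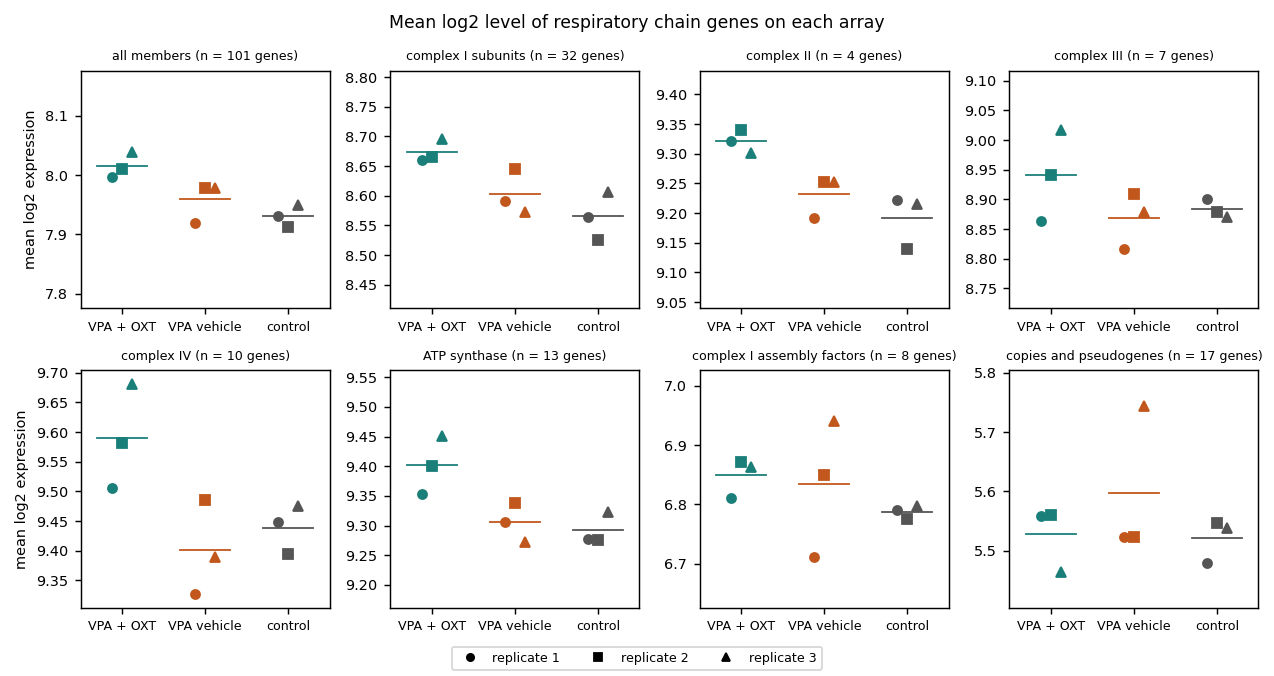
Mean log2 expression (y axis, every panel spanning 0.4 log2 units) of all 101 genes and of 7 groups of them on each array, for OXT-treated VPA, vehicle-treated VPA and control rats. Points are arrays, with the symbol giving the replicate number, and lines are group means over 3 arrays. The 3 OXT arrays lie above all other arrays for complex I subunits, complex II, complex IV and ATP synthase, and overlap them for complex III, assembly factors and copies. With arrays centred on their medians, the first 4 of these also overlap. The lowest OXT array then has 8.646, 9.258, 9.492 and 9.339, and vehicle-treated VPA replicate 2 has 8.672, 9.278, 9.512 and 9.364. With quantile normalization, complex II overlaps (9.294 against 9.296 on vehicle-treated VPA replicate 3).

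The arrays of OXT-treated VPA and control rats were often separate. For 26 of 101 genes, all 3 OXT-treated VPA arrays were above all 3 control arrays (background 6.16% of probe sets), and for 2 genes, Ndufaf3 and the copy Atp5mc1l1, all were below (5.87%). Among the 8340 genes over 6.6, 652 were above and 978 below in this way. Between OXT-treated and vehicle-treated VPA rats, the arrays were separate upward for 9 genes (background 3.0%) and downward for Cycs alone (3.33%). Between vehicle-treated VPA and control rats, they were separate upward for 9 genes (6.66%) and downward for 4 (6.92%). The count of 26 was 29 with quantile normalization and 22 with median centring (backgrounds 6.73% and 5.07%). The 26 genes included 10 subunits of complex I, 4 of ATP synthase, 3 of complex IV, Sdha, Sdhc, Uqcrc2, Uqcrh and Cycs. A separation of 3 arrays from 3 is a description, since an exact permutation test of 3 against 3 cannot give a two-sided p under 0.1.

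**Figure D3:**
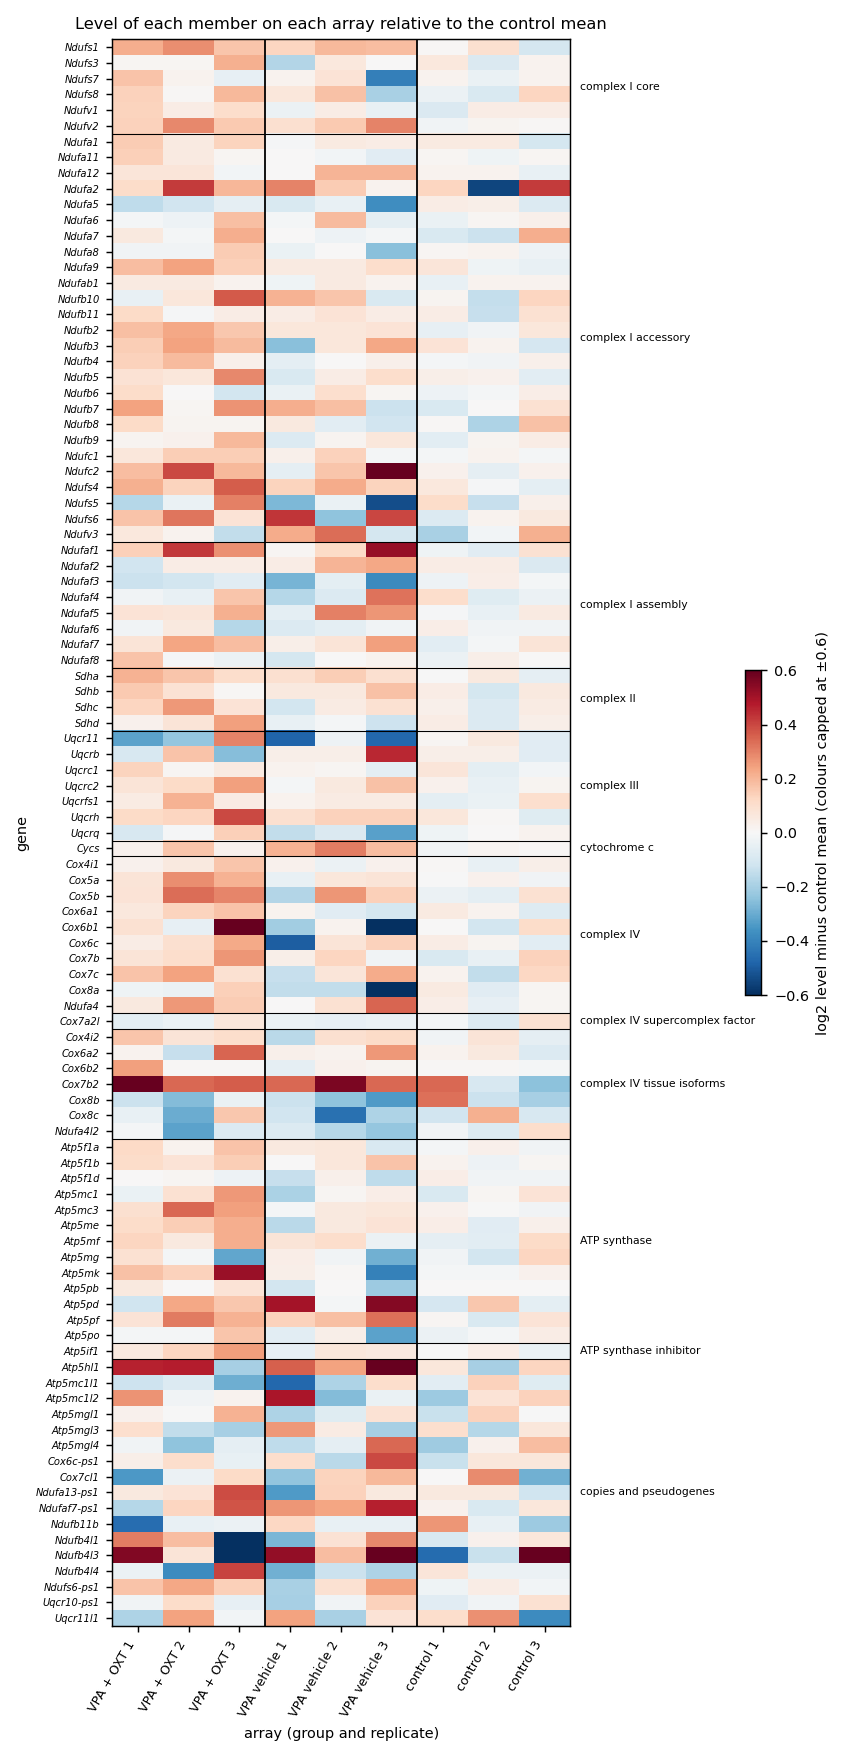
Log2 level of each of the 101 genes (rows, grouped by role) on each of the 9 arrays (columns), minus the mean of the 3 control arrays. Red is above and blue below the control mean, with colours capped at ±0.6. The OXT columns are mostly red from complex I to ATP synthase, while OXT-treated VPA replicate 3 and vehicle-treated VPA replicate 3 hold many of the strongest colours.

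In complex I, the entry point for electrons from NADH, 5 of 32 subunits rose in OXT-treated VPA rats compared with control rats and none fell (over all 101 genes 8 rose and 0 fell, with backgrounds of 3.87% higher and 3.51% lower among all probe sets). Of the 32 subunits, 29 were positive, with a median of 0.103. The 5 were the core iron-sulfur subunits Ndufs1 and Ndufv2 and the accessory subunits Ndufs4, Ndufa9 and Ndufb2.
Ndufs1, the largest subunit of the complex, had log2 expression of 9.53, 9.59 and 9.48 in OXT-treated VPA, 9.44, 9.51 and 9.5 in vehicle-treated VPA, and 9.32, 9.41 and 9.21 in control rats. All arrays of both VPA groups were above the control arrays. The OXT-treated VPA rats exceeded control rats by 0.22 ± 0.08 (SE, 1.165-fold, limma adjusted p = 0.558), and the vehicle-treated VPA rats did so by 0.17 (adjusted p = 0.563).
Ndufv2, part of the module that oxidizes NADH, showed the same order, with 9.87, 10.02 and 9.89 in OXT-treated VPA, 9.83, 9.89 and 10.03 in vehicle-treated VPA, and 9.71, 9.75 and 9.74 in control rats. Its difference between OXT-treated VPA and control rats was 0.19 (adjusted p = 0.662). OXT-treated and vehicle-treated VPA rats overlapped in Ndufs1 and in Ndufv2.
Ndufs4, an accessory subunit whose loss in mice gives a Leigh-like encephalopathy, measured 9.63, 9.55 and 9.78 in OXT-treated VPA, 9.55, 9.64 and 9.55 in vehicle-treated VPA, and 9.48, 9.41 and 9.36 in control rats. Control arrays were again the lowest. OXT-treated VPA rats were higher than control rats by 0.24 ± 0.085 (1.178-fold, adjusted p = 0.557).

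Ndufa9 and Ndufb2 differed from these in that the OXT arrays stood above both other groups. Ndufa9, which lies near the ubiquinone site, measured 9.76, 9.82 and 9.72 in OXT-treated VPA, 9.63, 9.63 and 9.68 in vehicle-treated VPA, and 9.65, 9.55 and 9.53 in control rats. Ndufb2, of the membrane arm, measured 8.95, 9.0 and 8.93 in OXT-treated VPA, 8.84, 8.84 and 8.85 in vehicle-treated VPA, and 8.72, 8.75 and 8.84 in control rats. Both genes exceeded control rats by 0.19 (1.141-fold) (adjusted p = 0.592 for Ndufa9 and adjusted p = 0.571 for Ndufb2). Against vehicle-treated VPA rats, their differences were 0.12 (adjusted p = 1.0 for each). The other core subunits, Ndufs3, Ndufs7, Ndufs8 and Ndufv1, had differences of 0.05 to 0.11 against control rats, and none of them passed.
No subunit of complex I passed between vehicle-treated VPA and control rats or between OXT-treated and vehicle-treated VPA rats. The widest negative difference of vehicle-treated VPA rats was that of Ndufs5, an accessory subunit with 7.98, 8.21 and 7.72 in vehicle-treated VPA and 8.36, 8.11 and 8.28 in control rats (−0.28, adjusted p = 0.623). The lowest of these values came from vehicle-treated VPA replicate 3.

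Of the 8 assembly factors of complex I, Ndufaf3 alone passed in any pair of groups. This factor, which takes part in early assembly, fell by 0.24 ± 0.093 in vehicle-treated VPA rats compared with control rats (0.8467-fold, adjusted p = 0.498). Its arrays gave 7.5, 7.52 and 7.56 in OXT-treated VPA, 7.35, 7.57 and 7.25 in vehicle-treated VPA, and 7.6, 7.67 and 7.62 in control rats. Control arrays were the highest, so Ndufaf3 ran opposite to most subunits. Ndufaf1 was on the other side, with differences from control of 0.28 in OXT-treated VPA (adjusted p = 0.723) and 0.22 in vehicle-treated VPA rats (adjusted p = 0.67), and vehicle-treated VPA replicate 3 was its highest array at 7.57.

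In complex II, succinate dehydrogenase, no gene passed in any pair of groups. All 4 genes were positive in OXT-treated VPA against control rats, by 0.08 to 0.16.
Sdha, the flavoprotein, had 10.27, 10.23 and 10.17 in OXT-treated VPA, 10.16, 10.21 and 10.16 in vehicle-treated VPA, and 10.06, 10.12 and 10.01 in control rats. Arrays of both VPA groups were above all control arrays, and the OXT-treated VPA rats differed from control by 0.16 (adjusted p = 0.688). Sdhb, the iron-sulfur subunit, differed by 0.08 (adjusted p = 0.901). The membrane anchors Sdhc and Sdhd differed by 0.16 (adjusted p = 0.778) and 0.12 (adjusted p = 0.843), and Sdhd was separate from vehicle-treated VPA rats, with 8.7, 8.75 and 8.92 in OXT-treated VPA and 8.63, 8.66 and 8.55 in vehicle-treated VPA rats (adjusted p = 1.0).

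Complex III, which hands electrons to cytochrome c, also had no gene that passed. Uqcrh, a small acidic subunit near the cytochrome c site, had 10.3, 10.31 and 10.58 in OXT-treated VPA, 10.28, 10.32 and 10.32 in vehicle-treated VPA, and 10.25, 10.19 and 10.11 in control rats, with a difference of OXT-treated VPA from control of 0.21 (adjusted p = 0.676). Uqcrq, another small subunit, had 8.69, 8.78 and 8.93 in OXT-treated VPA, 8.64, 8.7 and 8.46 in vehicle-treated VPA, and 8.76, 8.79 and 8.81 in control rats. Its vehicle-treated VPA arrays were below all control arrays, and the difference was −0.19 (adjusted p = 0.597).

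Cytochrome c, the carrier between complexes III and IV that also triggers apoptosis when it leaves the mitochondrion, had the smallest p of all 101 genes. Cycs log2 expression was 9.72, 9.86 and 9.72 in OXT-treated VPA, 9.9, 10.0 and 9.88 in vehicle-treated VPA, and 9.67, 9.71 and 9.7 in control rats. The groups did not overlap in any pair, with vehicle-treated VPA the highest. It rose by 0.23 ± 0.076 in vehicle-treated VPA rats compared with control rats (1.176-fold, adjusted p = 0.412). OXT-treated VPA rats differed from vehicle-treated VPA rats by −0.16 (adjusted p = 1.0) and from control rats by 0.07 (adjusted p = 0.906). The pass against control was kept in 17 of 18 alternative settings and lost without vehicle-treated VPA replicate 2. A second probe set of Cycs spread from 7.37 to 8.53 over the arrays and gave the same difference of 0.23 with adjusted p = 0.84.

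Complex IV, cytochrome c oxidase, had the widest median shift with OXT among the complexes. All 10 subunits were positive in OXT-treated VPA rats against vehicle-treated VPA rats, with a median of 0.157, and all 10 against control rats, with a median of 0.153. Against vehicle-treated VPA rats, 2 subunits passed, Cox8a and Cox6b1 (over all 101 genes 4 rose and 0 fell, with backgrounds of 1.86% higher and 2.81% lower). Against control rats, Cox5a passed.
Cox8a, a small membrane subunit, had 10.4, 10.39 and 10.57 in OXT-treated VPA, 10.28, 10.28 and 9.83 in vehicle-treated VPA, and 10.48, 10.36 and 10.44 in control rats. The vehicle-treated VPA arrays were below those of both other groups, most of all replicate 3. Cox8a fell by 0.30 ± 0.129 in vehicle-treated VPA rats compared with control rats (0.8141-fold, adjusted p = 0.549) and rose by 0.32 in OXT-treated VPA rats compared with vehicle-treated VPA rats (1.251-fold, adjusted p = 1.0). Neither passed without vehicle-treated VPA replicate 3, where the differences were −0.15 and 0.17.

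Cox6b1, a subunit on the intermembrane space side, depended on the same array and on OXT-treated VPA replicate 3. Its levels were 8.5, 8.36 and 9.11 in OXT-treated VPA, 8.2, 8.43 and 7.68 in vehicle-treated VPA, and 8.41, 8.3 and 8.52 in control rats. OXT-treated and vehicle-treated VPA arrays overlapped, and the rise of 0.55 ± 0.23 (1.467-fold, adjusted p = 1.0) did not pass without either of those arrays. A second, dim probe set of Cox6b1 gave a difference of −0.15 (adjusted p = 1.0).
Cox5a, which forms part of the matrix side, had 10.62, 10.82 and 10.75 in OXT-treated VPA, 10.5, 10.61 and 10.62 in vehicle-treated VPA, and 10.54, 10.57 and 10.52 in control rats. OXT arrays were above all control arrays, by 0.19 ± 0.081 on average (1.138-fold, adjusted p = 0.666). A second probe set held identical values, and the remaining probe set gave 0.16 (adjusted p = 0.751).
The ubiquitous forms Cox4i1 and Cox6a1 differed from vehicle-treated VPA rats by 0.08 (adjusted p = 1.0) and 0.17 (adjusted p = 1.0) in OXT-treated VPA rats. Ndufa4, first described as a complex I subunit and now placed in complex IV, differed by 0.01 (adjusted p = 1.0).

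Isoforms and relatives of complex IV subunits that other tissues or conditions favour were low. Cox4i2, Cox6a2, Cox6b2, Cox8b and Ndufa4l2 were below 6.6 on every array and did not pass in any pair of groups. Cox7b2, a relative of Cox7b known from testis in humans, rose in vehicle-treated VPA rats compared with control rats by 0.42 ± 0.158 (1.335-fold, adjusted p = 0.486) and in OXT-treated VPA rats by 0.45 (1.363-fold, adjusted p = 0.547). Its values were 3.84, 3.55 and 3.57 in OXT-treated VPA, 3.55, 3.77 and 3.55 in vehicle-treated VPA, and 3.55, 3.11 and 2.96 in control rats. These are far below the level of 6.6, and 4 arrays share the value 3.55, so that control replicate 1 equals 2 vehicle-treated VPA arrays.

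In ATP synthase, 11 of 13 subunits were positive in OXT-treated VPA rats against vehicle-treated VPA rats, with a median of 0.09, and 11 of 13 against control rats, with a median of 0.103. Atp5mc3 passed in both comparisons. Atp5mk passed against vehicle-treated VPA rats.
Atp5mc3, a gene for subunit c of the rotating ring, had 9.82, 10.07 and 9.97 in OXT-treated VPA, 9.71, 9.78 and 9.79 in vehicle-treated VPA, and 9.75, 9.72 and 9.7 in control rats. All OXT arrays were above all others. It rose by 0.23 ± 0.083 compared with control rats (1.173-fold, adjusted p = 0.558) and by 0.19 compared with vehicle-treated VPA rats (1.143-fold, adjusted p = 1.0). The difference from vehicle-treated VPA rats no longer passed in 11 of 18 alternative settings.
Atp5mk, a small subunit of the membrane part, had 11.25, 11.21 and 11.59 in OXT-treated VPA, 11.11, 11.08 and 10.67 in vehicle-treated VPA, and 11.06, 11.06 and 11.1 in control rats. The highest and the lowest values came from replicate 3 of OXT-treated VPA and replicate 3 of vehicle-treated VPA. The rise against vehicle-treated VPA rats was 0.40 ± 0.142 (1.316-fold, adjusted p = 1.0) and did not pass without either array. A second probe set, with 10.77, 10.92 and 10.88 in OXT-treated VPA and 10.63, 10.78 and 11.18 in vehicle-treated VPA rats, gave −0.01 (adjusted p = 1.0), so the probe sets of Atp5mk disagreed.

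Atp5pf, coupling factor 6 of the peripheral stalk, was high in both VPA groups, with 8.75, 8.98 and 8.88 in OXT-treated VPA, 8.81, 8.85 and 9.0 in vehicle-treated VPA, and 8.68, 8.58 and 8.75 in control rats. It rose by 0.22 ± 0.094 in vehicle-treated VPA rats compared with control rats (1.162-fold, adjusted p = 0.549), and vehicle-treated VPA arrays were above all control arrays. Over all 101 genes, 4 rose and 2 fell in this comparison, with backgrounds of 5.0% higher and 3.98% lower. The catalytic subunit Atp5f1b had differences from control of 0.11 in OXT-treated VPA (adjusted p = 0.824) and 0.08 in vehicle-treated VPA rats (adjusted p = 0.771). Atp5if1, the inhibitor of the reverse reaction, had 9.59, 9.66 and 9.78 in OXT-treated VPA, 9.48, 9.6 and 9.59 in vehicle-treated VPA, and 9.53, 9.57 and 9.49 in control rats (OXT-treated VPA minus control 0.15, adjusted p = 0.771).

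**Figure D4:**
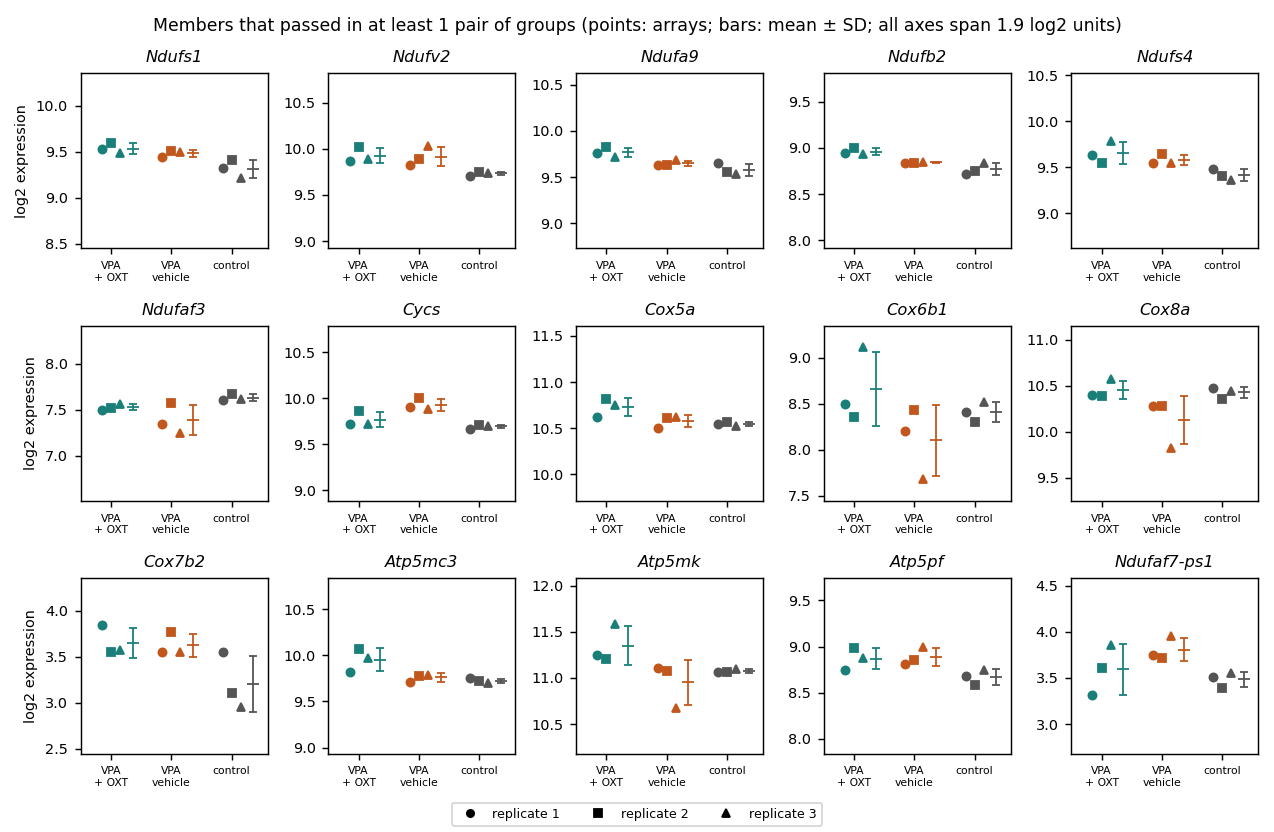
Log2 expression (y axis, every panel spanning 1.9 log2 units) on each array for the 15 genes that passed an unadjusted p under 0.05 in at least 1 pair of groups, with OXT-treated VPA, vehicle-treated VPA and control rats from left to right. Points are arrays and bars are means ± SD (n = 3). Control arrays are lowest for Ndufs1, Ndufv2 and Ndufs4, and the spread in Cox6b1, Cox8a and Atp5mk comes from replicate 3 of the VPA groups.

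The 17 copies and pseudogenes did not lean upward in OXT-treated VPA compared with vehicle-treated VPA rats. In OXT-treated VPA against vehicle-treated VPA rats, 7 of 17 were positive, with a median of −0.08, and against control rats 9 of 17, with a median of 0.01. In vehicle-treated VPA against control rats, 12 of 17 (70.6%) were positive, with a median of 0.037. Most of the copies had a mean log2 level below 6.6. Of the 23 respiratory chain genes not over 6.6, 12 were positive in OXT-treated against vehicle-treated VPA rats, with a median of 0.01. A part of low level in the contrast between copies and other genes was not tested. Probes for such copies may also bind RNA of the parent gene, so their values are uncertain. Ndufaf7-ps1 passed between vehicle-treated VPA and control rats, with 3.75, 3.72 and 3.95 in vehicle-treated VPA and 3.51, 3.39 and 3.55 in control rats (0.32, adjusted p = 0.542), at a level far below 6.6.

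Counting all 101 genes, 15 passed in at least 1 pair of groups, 3 of them in 2 pairs, and 86 in none. Those that passed made up 5.94% of the genes in vehicle-treated VPA against control rats, 3.96% in OXT-treated against vehicle-treated VPA rats and 7.92% in OXT-treated VPA against control rats, near the backgrounds of 8.98%, 4.66% and 7.38% in either direction. Arrays were separate in either direction for 13.6% of all probe sets in vehicle-treated VPA against control rats, for 6.33% in OXT-treated against vehicle-treated VPA rats, and for 3659 of the 30429 in OXT-treated VPA against control rats. The count of genes that passed shifted with single arrays. Between vehicle-treated VPA and control rats it was 6, and it was 3 without vehicle-treated VPA replicate 3 and 2 without any 1 of the control arrays. Between OXT-treated and vehicle-treated VPA rats it was 4, and it was 7 without OXT-treated VPA replicate 1, 1 without OXT-treated VPA replicate 3, 8 without vehicle-treated VPA replicate 2, and 2 without vehicle-treated VPA replicate 3 or any 1 of the control arrays. Between OXT-treated VPA and control rats it was 8, and it was 3 without OXT-treated VPA replicate 2, 13 without vehicle-treated VPA replicate 3, 5 without control replicate 1, and 1 without control replicate 2 or 3. The direction of the differences was also read with single arrays left out. In vehicle-treated VPA against control rats, 62 genes were positive with a median of 0.027, and this was 66 (median 0.06) without vehicle-treated VPA replicate 1, 52 (median 0.007) without replicate 2 and 55 (median 0.013) without replicate 3 of that group. Without OXT-treated VPA replicate 3, 76 of 101 genes were positive against vehicle-treated VPA rats (median 0.057) and 78 against control rats (median 0.073), and without vehicle-treated VPA replicate 3, 73 were positive in OXT-treated against vehicle-treated VPA rats (median 0.068).

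Each of these passes was lost without at least 1 of the 9 arrays, with no change of sign. Between vehicle-treated VPA and control rats, Cycs passed without each array except vehicle-treated VPA replicate 2 (differences 0.20 to 0.26 over the arrays left out). Cox7b2 was lost without vehicle-treated VPA replicate 2 or control replicate 2 or 3 (0.29 to 0.59), and Ndufaf3 without vehicle-treated VPA replicate 1 or 3 or any 1 control array (−0.33 to −0.17). Atp5pf was lost without OXT-treated VPA replicate 3, vehicle-treated VPA replicate 2 or 3, or control replicate 1 or 2 (0.16 to 0.26). Cox8a still passed when the array left out was vehicle-treated VPA replicate 1 or 2, and was lost without any other (−0.37 to −0.15), and Ndufaf7-ps1 still passed when it was OXT-treated VPA replicate 1 or 3 only (0.25 to 0.37).
Between OXT-treated and vehicle-treated VPA rats, Atp5mk was lost without replicate 3 of either group (0.26 to 0.48), and Cox8a also without OXT-treated VPA replicate 1 (0.17 to 0.40). Cox6b1 was lost without OXT-treated VPA replicate 3, vehicle-treated VPA replicate 1 or 3, or any 1 control array (0.33 to 0.72), and Atp5mc3 without any array other than OXT-treated VPA replicate 1 (0.14 to 0.26).
Between OXT-treated VPA and control rats, Ndufs1 was lost without OXT-treated VPA replicate 2 or control replicate 3 (0.17 to 0.27). Without control replicate 2 or 3, Ndufs4, Atp5mc3, Cox7b2 and Ndufa9 were lost. Ndufs4 was also lost without OXT-treated VPA replicate 3 (0.17 to 0.29), Atp5mc3 without replicate 2 (0.17 to 0.30), Cox7b2 without replicate 1 (0.32 to 0.62) and Ndufa9 without replicate 1 or 2 of that group (0.16 to 0.23). Ndufb2 was lost without OXT-treated VPA replicate 2 or control replicate 1 or 2 (0.17 to 0.23). Ndufv2 and Cox5a were lost without OXT-treated VPA replicate 2 or 3, vehicle-treated VPA replicate 2 or any 1 control array (0.15 to 0.22 for Ndufv2 and 0.14 to 0.24 for Cox5a).

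Other genes of mitochondrial energy metabolism were read from lists of pathway genes. Their counts stand against the backgrounds given above, of 5.0% higher and 3.98% lower for vehicle-treated VPA against control rats, 1.86% and 2.81% for OXT-treated against vehicle-treated VPA rats, and 3.87% and 3.51% for OXT-treated VPA against control rats. Of all genes, 45.4%, 55.7% and 50.6% were positive in these comparisons. Of the subunits that the mitochondrial genome encodes, 3 were found by symbol in the platform annotation, COX1, COX2 and COX3. All were near the top of the range of the arrays. The study also counted Mt-nd3, another such gene, among its differentially expressed genes improved by OXT. Mt-nd3 was not among the 3 genes read here. COX2 fell in OXT-treated VPA compared with vehicle-treated VPA rats, with 12.86, 12.91 and 12.82 in OXT-treated VPA, 13.0, 13.08 and 13.1 in vehicle-treated VPA, and 12.92, 12.92 and 12.9 in control rats (OXT-treated minus vehicle-treated VPA −0.20, adjusted p = 1.0). This was opposite in sign to the 10 nuclear subunits of complex IV. COX1 and COX3 differed by −0.03 each in the same comparison (adjusted p = 1.0 for each).

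Among 19 regulators of mitochondrial biogenesis, Ppargc1a, a coactivator of the respiratory program, rose in vehicle-treated VPA compared with control rats, and Sirt3, a mitochondrial deacetylase, fell. Ppargc1a had 8.75, 8.99 and 8.83 in vehicle-treated VPA and 8.64, 8.71 and 8.55 in control rats (0.22, adjusted p = 0.501). Sirt3 had 7.29, 7.27 and 7.4 in vehicle-treated VPA and 7.48, 7.46 and 7.57 in control rats (−0.18, adjusted p = 0.531). Polg2, an accessory subunit of the mitochondrial DNA polymerase, fell by 0.46 in OXT-treated VPA compared with vehicle-treated VPA rats (adjusted p = 1.0). Nrf1, Gabpa and Tfam did not pass in any pair of groups.

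None of 18 genes of the citric acid cycle and pyruvate dehydrogenase passed, although 17 were positive in OXT-treated VPA against control rats, with a median of 0.058. Of 12 glycolytic genes, Pfkm and Aldoc rose in that comparison, by 0.22 (adjusted p = 0.491) and 0.38 (adjusted p = 0.557). Of 15 carriers and related genes, the uncoupling protein gene Ucp2 and the citrate carrier gene Slc25a1 fell in vehicle-treated VPA compared with control rats, by 0.60 (adjusted p = 0.46) and 0.21 (adjusted p = 0.421). The glutamate carrier gene Slc25a22 fell in OXT-treated VPA compared with control rats by 0.25 (adjusted p = 0.666). Of the 15, 11 were positive in OXT-treated against vehicle-treated VPA rats, with a median of 0.083. Against control rats, 11 were also positive, with a median of 0.043.
Of 11 antioxidant genes, Gpx1, a glutathione peroxidase, rose by 0.39 in OXT-treated VPA compared with vehicle-treated VPA rats (adjusted p = 1.0). There, 10 of the 11 were positive, with a median of 0.147, near that of complex IV (0.157). The lowest OXT array mean of the 11 genes lay 0.013 above the highest of the other arrays. With arrays centred on their medians these means overlapped (8.217 on OXT-treated VPA replicate 3, 8.243 on vehicle-treated VPA replicate 2). Prdx3, the mitochondrial peroxiredoxin, rose by 0.25 in OXT-treated VPA compared with control rats (adjusted p = 0.661). None of 18 protein import genes passed. In OXT-treated against vehicle-treated VPA rats 15 of the 18 (83.3%) were positive, with a median of 0.078, close to that of the respiratory chain genes (0.077). Against control rats 11 of the 18 were positive, with a median of 0.03. Of 35 assembly factors and subunits outside the naming rule, 22 were positive in OXT-treated against vehicle-treated VPA rats, with a median of 0.023. Among these 35, Cox10, which takes part in making the heme of complex IV, fell by 0.25 in vehicle-treated VPA compared with control rats (adjusted p = 0.535). Of 72 mitochondrial ribosome genes, 2 rose in OXT-treated VPA compared with vehicle-treated VPA rats and 51 (70.8%) were positive, with a median of 0.057. Against control rats, none of the 72 passed in either direction, with a median of 0.025, while the median of the respiratory chain genes was 0.09. Of 192 cytosolic ribosome genes and copies, 4 rose and 4 fell in OXT-treated VPA compared with vehicle-treated VPA rats, with a median of 0.037.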

How the data were processed

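Dorsal hippocampal RNA was hybridized to 9 arrays in 3 groups. The authors processed them with Transcriptome Analysis Console (version 4.0), and the submitters' notes also name Affymetrix Expression Console; the deposited log2 values carry 2 decimals, and the summarization, normalization and probe set build are not given in the sources used here. Values were used as deposited, without a filter.

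Genes were named by the platform annotation (18511 probe sets with 1 symbol, 575 with several, 11343 with none). All 101 gene IDs were found in RefSeq (GRCr8). A further 8 probe sets naming a member beside another gene were not used. The genes and lists were chosen with earlier results of these data known.

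A linear model over 30429 probe sets was fitted in R (version 4.3.3) using limma (3.58.1), with two-sided moderated tests (2.723 prior degrees of freedom from empirical Bayes) and Benjamini-Hochberg adjustment. Genes named are up to 8 members with the smallest p per pair of groups among those with p under 0.05, complex IV isoform pairs, Cycs, Sdha to Sdhd, and up to 2 genes per list and pair; other members named were chosen after their values were seen. In simulated vehicle-treated VPA and control arrays, changes of 0.25 on the log2 scale passed in 67%, and unchanged probe sets in 5.56%. Alternatives were normalization, array weights, moderation, level filter, probe set choice, replicate number as a block, and leaving out each array. The number of arrays limits the precision.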

Additional observations from a re-analysis of the deposited data

How the results depend on the processing

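The numbers passing an unadjusted p under 0.05 depended on the processing. Between vehicle-treated VPA and control rats, 6 genes passed, and 10 did so with quantile normalization. Between OXT-treated and vehicle-treated VPA rats, 4 passed, against 2 with array weights, 1 with only the 2 groups compared, 10 with trend and robust moderation, 11 without moderation, 9 with the level filter of 6.6 and 2 with the lowest probe set of each gene. Between OXT-treated VPA and control rats, 8 passed, against 3 with median centring, 17 with array weights, and 14 both with only the 2 groups compared and without moderation. At p under 0.01, 0 passed in each comparison by limma. With the replicate number as a block, 4 passed between vehicle-treated VPA and control rats, 1 between OXT-treated and vehicle-treated VPA rats and 4 between OXT-treated VPA and control rats. Same-numbered arrays correlated between −0.212 and 0.101 in their deviations from group means, and differently numbered arrays between −0.153 and 0.224. No pairing by number was seen, though 3 arrays per group cannot exclude one. The median difference between OXT-treated VPA and control rats was 0.07 with median centring and 0.113 with the level filter, and the gap of the per-array means was −0.022 with median centring. The causes were not tested.

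With each array left out in turn, the genes that passed numbered 2 to 9 for vehicle-treated VPA against control rats, 1 to 8 for OXT-treated against vehicle-treated VPA rats and 1 to 13 for OXT-treated VPA against control rats, and the medians were 0.007 to 0.06, 0.057 to 0.093 and 0.073 to 0.11. The numbers of positive differences were 52 to 66, 69 to 78 and 76 to 82, chosen for recalculation after seeing the data. The criteria of the study gave 0 to 0 genes. No difference of the genes that passed changed sign under another fit, scaling or array left out, while the second probe sets of Cox6b1 and Atp5mk gave −0.15 and −0.01 between OXT-treated and vehicle-treated VPA rats.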
